A study of Mus musculus with 9 samples.

Results

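CD47 KO clone E5 was compared with CD47 KO clone E3, using 6 of the 9 RNA-seq libraries of the series: 3 of each clone. The question was which genes and functions part clones made with the same guide. Both clones were derived from LLC (Lewis lung carcinoma), a mouse cell line that here stably expresses luciferase and is labelled as lung adenocarcinoma. Recombinant Cas9 loaded with one Cd47 guide RNA was electroporated into the line, and single edited cells were expanded, so each KO group is 1 clone. The 3 WT libraries come from unedited LLC cells and serve here only to show which clone had moved from the line of origin. All groups were grown in vitro and no drug treatment is given in the labels.

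CD47 is a cell surface protein that binds SIRPα on macrophages and inhibits phagocytosis, and it is also a receptor for thrombospondin-1, the product of Thbs1. Cells of a cultured tumor line differ from each other in expression state and in chromosome content, and a clone passes on the state of its founder cell. In female cells, the noncoding RNA Xist coats 1 X chromosome and silences most of its genes, while a few genes on that chromosome escape silencing. The extracellular matrix, made of collagens, proteoglycans, glycoproteins and the proteases that process them, is one of the programs by which mesenchymal and epithelial states are told apart.

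The guide is shown because both clones were made with it, and the capitals mark the PAM, the short motif Cas9 needs beside its target. It matches the plus strand of GRCm39 at chr16:49688453-49688475, in the coding part of exon 2 of Cd47:
Cd47 guide and PAM: tatagagctgaaaaaccgcaCGG

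Values are CPM, gene counts scaled to library size, after TMM scaling, listed for replicates 1, 2 and 3, and a level is compared within a gene only. Total counts were 44257404 to 55095219 per library. Clones were compared by the quasi-likelihood test of edgeR, with p-values adjusted by the Benjamini-Hochberg method (FDR). A DEG had an FDR under 0.05 and a log2 fold change, E5 minus E3, above 1 or below -1. Replicate 3 of clone E3 stood apart from its replicates. Its deviation from them had a median of 0.52 on the log2 scale in the shortest 932 of 9313 well-expressed genes and -0.66 in the longest 932, against -0.05 to 0.06 in every E5 and WT library, so results that rest on it are also given without it. Per the methods of the study, each genotype had independent biological replicates, but each group here is replicates of 1 line, so p-values measure the spread within a line.

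Cd47 mRNA was low in both clones and lower in E5. It was 15.5, 18.6 and 18.1 CPM in E5, 47.4, 36.7 and 49.6 CPM in E3 and 187, 179 and 182 CPM in WT cells. No library of one line overlapped with another line. The difference between the clones was -1.36 on the log2 scale (SE 0.13, adjusted p = 2.76e-05). The guide site is in an early exon and reads elsewhere on the gene are still counted, so the mRNA level does not measure the protein. In bulk libraries, fewer expressing cells and less RNA per cell cannot be told apart. Thbs1 was 43.2, 43.6 and 44.6 CPM in E5, 116, 107 and 69.7 CPM in E3 and 34.9 to 46.7 CPM in WT cells. E3 was thus the clone that departed from WT for this ligand gene, and E5 lay within the WT range, with a difference between clones of -1.15 (SE 0.18, adjusted p = 0.000805).

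Of 14593 genes tested, 509 (3.49%) were DEGs higher in E5 and 1097 (7.52%) were DEGs lower in E5. WT cells were used to place each of them, by asking which clone the WT level was nearer to on the log2 scale, with positions from 33.3% to 66.7% of the gap between clones counted as the middle. Of the DEGs higher in E5, WT was nearer to E5 for 251, nearer to E3 for 142 and in the middle for 116. Of the DEGs lower in E5, WT was nearer to E3 for 468, nearer to E5 for 359 and in the middle for 270. The WT mean lay between the clones for 316 of the 509 and 763 of the 1097. Both clones thus departed from WT for large groups of genes. Because each gene was picked for its difference between clones, these positions are descriptions and carry no test. The shares of 3.49% and 7.52% of all genes are the background for the counts of DEGs in gene lists below.

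**Figure D1:**
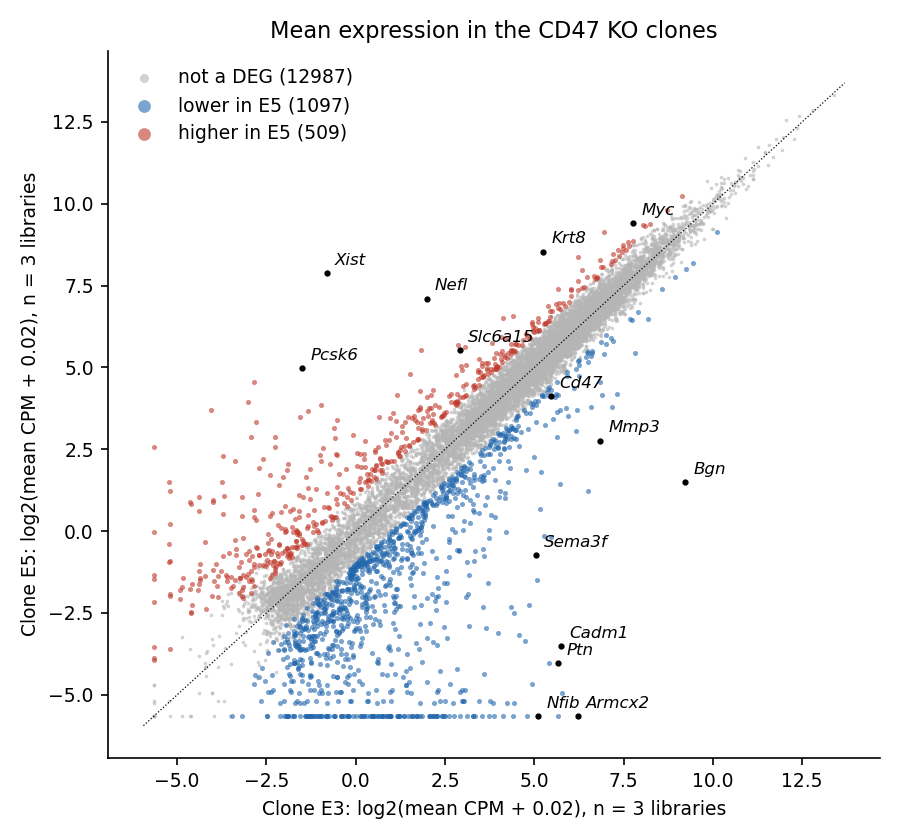
Mean expression of the 14593 tested genes in clone E3 (x axis) and clone E5 (y axis), each as log2 of the mean CPM of 3 libraries plus 0.02, with DEGs colored by direction and some described genes labeled. The row of points along the bottom edge holds genes with no count in any E5 library, such as Armcx2 and Nfib, and has no equally long counterpart on the left edge.

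Xist, the RNA that coats the inactive X chromosome, showed the largest positive log2 fold change among the well-expressed genes named by rule. It was 190, 189 and 331 CPM in E5, 0.440, 0.993 and 0.220 CPM in E3 and 231, 192 and 196 CPM in WT cells. E5 and WT shared a range and E3 was far below both, with a log2 fold change of 8.74 (SE 0.44, adjusted p = 2.97e-07). In E3 the Xist level was 0.233% of that in E5. Of 4 Y-linked genes looked up after these values were seen, Ddx3y, Uty, Kdm5d and Eif2s3y, none passed the filter and none had more than 1 count in any library.

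Genes that are known to escape X inactivation in mouse were looked up for the same reason, from a list written after the Xist values were seen. All 8 listed genes had a higher mean in E5, and 7 of them passed the FDR threshold in that direction, beside 14.7% of all genes (31.9% in either direction). Their level in E3 was 43.9% to 76.7% of that in E5, with a median of 58.7%. These levels and the count of 7 include replicate 3 of E3 and were not recomputed without it. It was the lowest E3 library for Eif2s3x, Kdm5c, Kdm6a and Ddx3x, which lowers their percentages, and the highest for Pbdc1. Eif2s3x, which encodes a subunit of translation initiation factor eIF2, was 270, 270 and 258 CPM in E5, 133, 144 and 72.9 CPM in E3 and 198 to 207 CPM in WT cells. Kdm5c, a histone demethylase gene, was 204, 215 and 201 CPM in E5 and 113, 127 and 69.8 CPM in E3. The E3 libraries were below those of E5 and WT for both genes, with log2 fold changes of 1.19 (SE 0.20) and 1.00 (SE 0.18). Replicate 3 of E3 was the lowest library for both. Without it the log2 fold changes were 0.95 and 0.79, below the fold threshold. Kdm5c passed by a small margin and lost its call in 7 of 17 alternatives. Ddx3x did not pass the test (log2 fold change 0.46, adjusted p = 0.102), and its libraries overlapped, at 494, 449 and 431 CPM in E5 and 339, 438 and 221 CPM in E3.

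The rest of the X chromosome went mostly the other way among the strongest changes. Of 459 X-linked genes tested, 72 (15.7%) were DEGs lower in E5 and 26 (5.66%) were DEGs higher in E5. Across the 19 autosomes the shares of lower DEGs ran from 4.26% to 13.3%, and those of higher DEGs from 1.5% to 5.92%. The X chromosome had the highest share of lower DEGs, followed by chromosome 9 with 107 of 802 genes. At the same time the median log2 fold change over all X-linked genes tested was 0.24, above the -0.01 over all genes. This was within the range of the autosomal medians, -0.23 to 0.34. For the 72 lower X-linked DEGs, WT lay between the clones for 65, and the median WT level was 25.3% of that in E3. For the 26 higher ones, WT lay between the clones for 22, and the median WT level was 74.2% of that in E5. Chromosome 9 had the lowest median among the autosomes, -0.23, and the median was -0.23 for E5 against WT and -0.01 for E3 against WT.

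**Figure D2:**
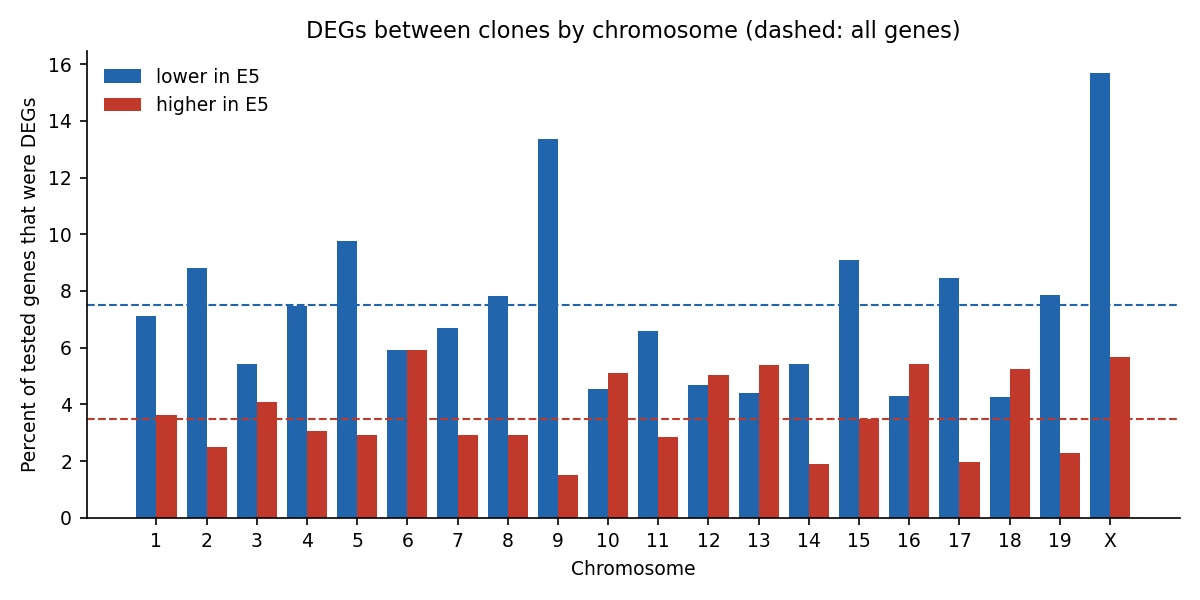
Percent of the tested genes of each chromosome (x axis) that were DEGs lower (blue) or higher (red) in clone E5 than in clone E3, with dashed lines at 7.52% and 3.49%, the shares over all genes. The X chromosome (15.7%) and chromosome 9 (13.3%) have the highest blue bars.

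Some genes were expressed in 1 clone and at the detection limit in the other, defined as at least 1 CPM in every library of one clone and at most 3 counts in every library of the other. There were 105 such genes in E3 (0.72% of the genes tested) and 7 in E5 (0.048%). Of the 105 genes expressed in E3 only, 65 had no count at all in E5, 36 were on the X chromosome and 21 on chromosome 9. WT cells expressed most of them: 5 of the 105 were at the detection limit in WT too. The WT level relative to E3 differed with the chromosome. It had a median of 24.5% for the 36 X-linked genes, with quartiles of 18.0% and 29.1%, 90.1% for the 21 genes on chromosome 9 and 46.3% for the 48 on other autosomes. E5 was thus the clone that differed for many of the genes on chromosome 9, while WT lay between the clones for most of the X-linked ones. These genes were chosen by their difference between clones, and no test was run on them as a group.

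**Figure D3:**
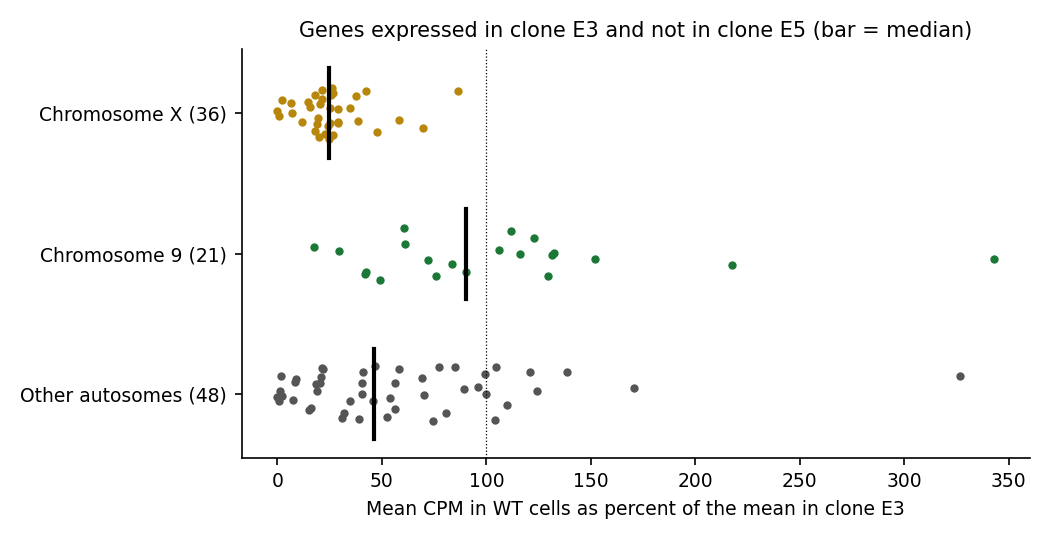
Mean WT level as percent of the mean level in clone E3 (x axis) for each of the 105 genes expressed in E3 and not in E5, by chromosome group, with a black bar at the median. Points of the X chromosome cluster around a median of 24.5%, while those of chromosome 9 spread around 90.1%.

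The Armcx cluster, X-linked genes for armadillo-repeat proteins of which several sit on mitochondria, contained the gene with the highest CPM, not scaled to length, among those expressed in E3 only. Its members were chosen after their values were seen. Armcx2 had no count in the 3 E5 libraries, 79.7, 75.5 and 68.1 CPM in E3 and 16.3, 15.8 and 15.9 CPM in WT cells. It was at least 1206-fold lower in E5, counted against a floor of 3 counts per library. Armcx3 had no count in E5 either and was 14.5, 10.6 and 9.85 CPM in E3 and 2.00 to 2.74 CPM in WT cells, and was at least 189-fold lower. Armcx4 was 2.61, 2.54 and 2.87 CPM in E5 against 61.8, 60.3 and 35.6 CPM in E3. Armcx1 was 10.3, 10.3 and 9.76 CPM in E5, 35.5, 27.2 and 36.5 CPM in E3 and 9.99 to 11.1 CPM in WT cells. Not every member differed: Armcx5 was 5.84, 5.34 and 4.84 CPM in E5 and 5.54, 4.46 and 4.20 CPM in E3, with a log2 fold change of 0.17 (SE 0.14, adjusted p = 0.387).

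Promoters are shown for a member with no count in E5, a member lower in E5 than in E3 and a member that did not pass the test, to let their CpG content be read beside the levels. The sequences run from 250 bases before to 50 bases after the start of the gene, are credited to RefSeq on GRCm38.p6, and are printed 5′ to 3′ on the strand of the gene with CG dinucleotides in capitals. Armcx2 lies at chrX:134809172-134809471 on the minus strand, Armcx1 at chrX:134717688-134717987 and Armcx5 at chrX:135742442-135742741 on the plus strand:
Armcx2: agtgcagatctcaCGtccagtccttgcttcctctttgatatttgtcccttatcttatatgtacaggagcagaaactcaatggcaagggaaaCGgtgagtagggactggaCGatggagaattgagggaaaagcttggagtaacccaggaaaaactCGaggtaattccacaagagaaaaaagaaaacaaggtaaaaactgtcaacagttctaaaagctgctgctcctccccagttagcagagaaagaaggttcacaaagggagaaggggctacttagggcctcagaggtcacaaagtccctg
Armcx1: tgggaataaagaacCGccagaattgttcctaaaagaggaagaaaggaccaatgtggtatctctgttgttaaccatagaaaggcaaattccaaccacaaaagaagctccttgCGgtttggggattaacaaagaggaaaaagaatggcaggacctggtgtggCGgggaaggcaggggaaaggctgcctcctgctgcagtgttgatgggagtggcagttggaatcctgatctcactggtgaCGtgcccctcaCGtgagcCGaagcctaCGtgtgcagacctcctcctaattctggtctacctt
Armcx5: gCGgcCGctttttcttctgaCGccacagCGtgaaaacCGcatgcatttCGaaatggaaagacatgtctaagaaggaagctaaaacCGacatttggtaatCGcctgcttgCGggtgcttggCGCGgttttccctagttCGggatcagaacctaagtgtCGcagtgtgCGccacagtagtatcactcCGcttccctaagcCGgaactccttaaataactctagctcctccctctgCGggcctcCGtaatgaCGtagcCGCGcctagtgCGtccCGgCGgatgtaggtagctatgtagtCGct
They hold 4, 7 and 25 CG dinucleotides. Of 32851 promoters of the same length in the table, 62% hold more than Armcx2, 48.6% more than Armcx1 and 16.9% more than Armcx5. The promoter of Armcx4, which was lower in E5, holds 19 (26.5% hold more) and that of Armcx6, with no count in E5, holds 10 (41.4% hold more). This is a description of the letters, and methylation was not measured.

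Other X-linked genes expressed in E3 only included Col4a5, a basement membrane collagen chain, Tmem47, a junction-associated membrane protein, and Lrch2. Col4a5 was 70.3, 56.4 and 38.5 CPM in E3, 7.76 to 8.11 CPM in WT cells and had 2 counts over the 3 E5 libraries, a ratio of 4037 with a 95% Poisson interval of 1118 to 33335 that covers counting error in E5 only. Tmem47 was 58.8, 48.5 and 43.8 CPM in E3 and 8.55 to 9.68 CPM in WT cells. With no count in E5, Tmem47 was at least 816-fold lower. Lrch2 was at least 340-fold lower. All of them were intermediate in WT cells. Pcdh19, an X-linked protocadherin, had a low level in E5, at 0.819, 0.889 and 0.943 CPM against 39.9, 48.1 and 28.8 CPM in E3 and 9.91 to 10.8 CPM in WT cells. Some X-linked genes were higher in E5. Morc4 was 25.3, 27.9 and 29.7 CPM in E5, 3.58, 2.81 and 2.11 CPM in E3 and 26.7 to 27.0 CPM in WT cells, so that E3 was the clone that differed. Phex, an endopeptidase gene, was 46.8, 49.0 and 51.2 CPM in E5 and 10.4, 8.22 and 6.38 CPM in E3, with WT near E3 at 11.4 to 14.1 CPM. Rhox5, a reproductive homeobox gene, was 663, 662 and 623 CPM in E5 and 219, 227 and 343 CPM in E3.

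On chromosome 9, several genes for adhesion molecules were expressed in E3 and WT and not, or hardly, in E5. Ncam1, a neural cell adhesion molecule, was 15.4 to 21.9 CPM in E3 and 21.2 to 23.1 CPM in WT cells, and had 1 count in E5. Its ratio was 2757 with a 95% Poisson interval of 495 to 108902. Cadm1, a related adhesion molecule of the immunoglobulin superfamily, was 0.0646, 0.0651 and 0.0740 CPM in E5, 57.4, 55.6 and 47.1 CPM in E3 and 59.7 to 66.7 CPM in WT cells. E3 resembled WT for both genes and E5 did not. Tpbg, the trophoblast glycoprotein 5T4, was 12.9 to 17.2 CPM in E3 and 15 to 15.8 CPM in WT cells and had 1 count in E5. Chst2, a carbohydrate sulfotransferase gene, had none and was at least 282-fold lower in E5. Sema3f, a secreted semaphorin gene, was 0.668, 0.455 and 0.629 CPM in E5, 34.3, 29.7 and 35.0 CPM in E3 and 16.4 to 18.0 CPM in WT cells. The 21 genes expressed in E3 only were spread over the chromosome, from Sesn3 at 14186363 to Rbms3 at 116401814 (GRCm39).

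Elsewhere in the genome, the genes with the highest CPM among those expressed in E3 only were Ptn, a heparin-binding growth factor, Nfib, a transcription factor, Cd34, a sialomucin of progenitor cells, and Lgi2. Ptn was 50.9, 36.4 and 64.8 CPM in E3 and 28.0 to 29.3 CPM in WT cells and had 6 counts over the E5 libraries, a ratio of 1239 with a 95% Poisson interval of 569 to 3376. Nfib was 34.1, 36.4 and 32.4 CPM in E3, 28.5 to 32.3 CPM in WT cells and at 0 in E5, at least 556-fold lower. For Nfib, E3 and WT overlapped. Cd34 was 31.4, 28.8 and 31.1 CPM in E3, 5.71 to 6.82 CPM in WT cells and had 3 counts in E5, a ratio of 1487 with an interval of 509 to 7211. Lgi2 was at 0 in E5 and at least 451-fold lower. Its level was 35.4, 23.9 and 24.1 CPM in E3 and 80.8 to 105 CPM in WT cells, so both clones were below WT. The reverse case was seen for 7 genes. Krt13, a keratin gene, was 2.35, 2.47 and 2.11 CPM in E5 and 0.422 to 0.621 CPM in WT cells and had 1 count in E3. The other named genes expressed in E5 only, Ssxb16, Phactr2, Ripor3, Slc2a10 and Chmp4c, reached at most 3.62 CPM in any E5 library. The other one, the X-linked processed pseudogene AA414768, can share reads with its parent gene and was chosen after its values were seen. It was 5.86, 5.81 and 5.99 CPM in E5 and 3.66 to 4.73 CPM in WT cells, and with no count in E3 it was at least 93.3-fold higher in E5.

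**Figure D4:**
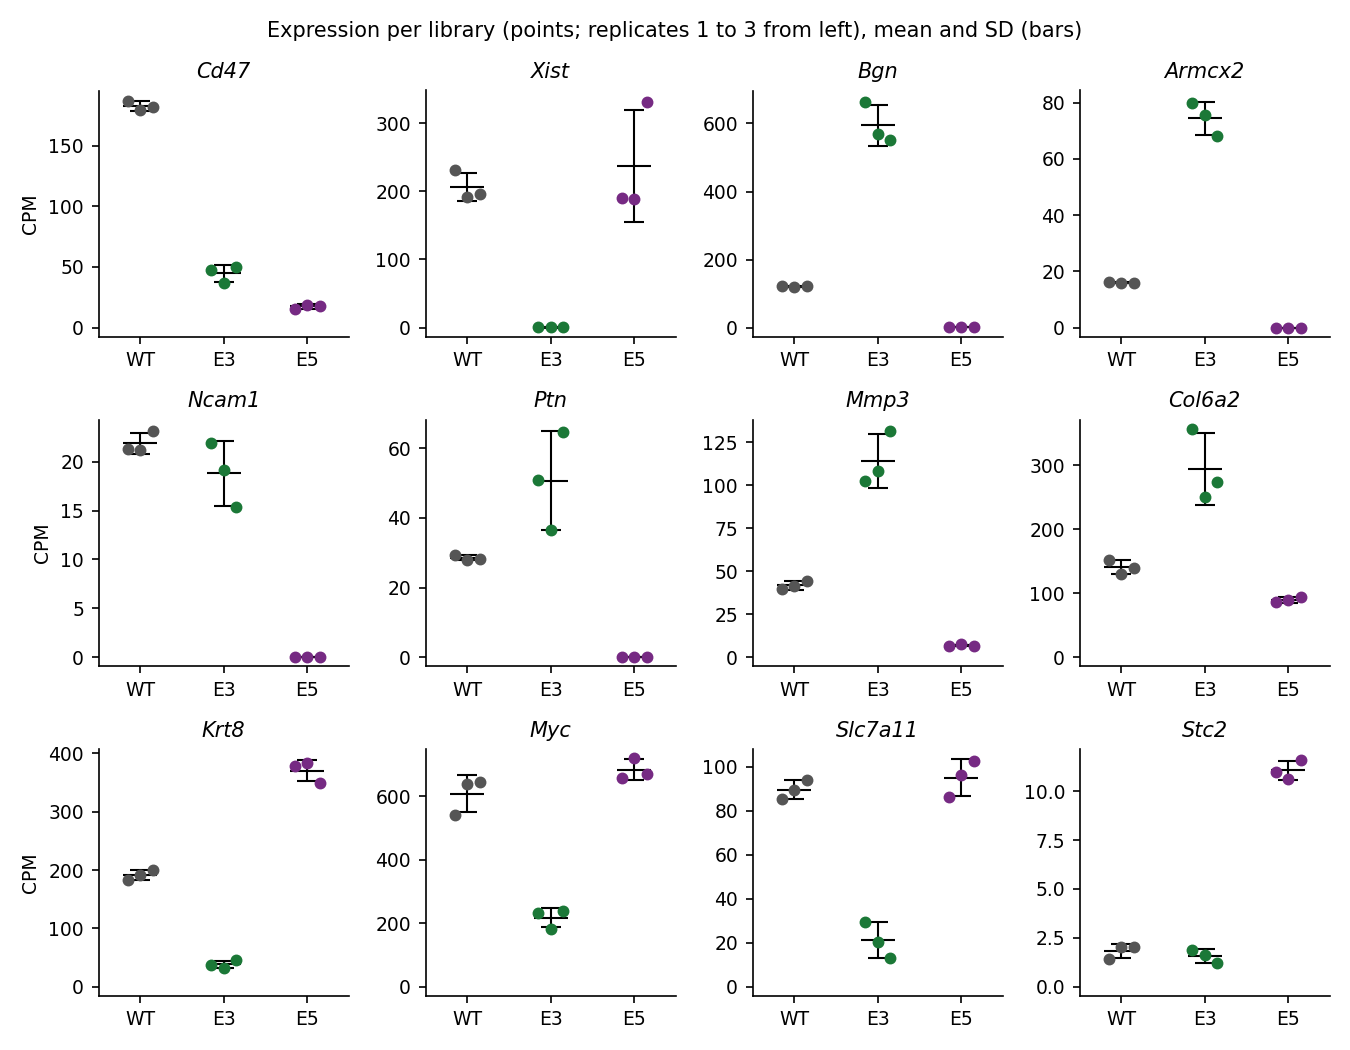
CPM per library (y axis, linear, each gene on its own scale) of 12 genes in WT cells, clone E3 and clone E5, with points for replicates 1 to 3 from left to right, a long bar for the mean and short bars for the SD. Armcx2, Ncam1 and Ptn are at the bottom of the scale in E5, Xist is at the bottom in E3, and WT lies between the clones for Bgn, Mmp3 and Krt8.

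Of 24 collagen chains tested, 11 were DEGs lower in E5 and none was higher, and their median log2 fold change was -1.06. Col6a2, a chain of the microfibrillar collagen VI, was 85.4, 88.5 and 93.7 CPM in E5, 357, 250 and 274 CPM in E3 and 130 to 151 CPM in WT cells. Col6a3, its partner chain, was 0.172, 0.108 and 0.185 CPM in E5, 32, 20.1 and 12.6 CPM in E3 and 22.9 to 26.1 CPM in WT cells. The libraries of the clones did not overlap for either chain, and WT lay nearer to E3 for Col6a3. The fibrillar chains split. Col5a1 was a DEG at -1.16 (SE 0.14, adjusted p = 0.000163) and Col1a1 at -2.44 (SE 0.27), although Col1a1 reached only 4.02 CPM. Col3a1, a fibrillar chain at 3061 to 3397 CPM in E5 and 3502 to 4456 CPM in E3, was not (log2 fold change -0.29, adjusted p = 0.0841), nor were the basement membrane chains Col4a1 at -0.02 and Col4a2 at -0.11. Col2a1, the cartilage collagen, was 3.17 to 4.84 CPM in E3 and 0.037 to 0.253 CPM in E5 and WT cells. Col3a1, Col5a1 and Col6a2 were chosen after their values were seen.

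Among 18 proteoglycans, 4 were lower DEGs and none was higher. Biglycan (Bgn), a small leucine-rich proteoglycan whose gene is on the X chromosome, was 2.65, 3.14 and 2.57 CPM in E5, 664, 570 and 552 CPM in E3 and 119 to 122 CPM in WT cells. The 3 lines were fully separated, with E3 above and E5 below WT, and the log2 fold change was -7.74 (SE 0.14, adjusted p = 4.55e-10). Of 34 matrix glycoproteins, 7 were lower and 3 higher. Sparc, a collagen-binding protein, was 289, 265 and 220 CPM in E5, 582, 593 and 646 CPM in E3 and 228 to 266 CPM in WT cells, so E3 was the clone that had moved. Fbn1, which encodes the microfibril protein fibrillin-1, was 33.8, 33.2 and 41.0 CPM in E5, 120, 110 and 42.4 CPM in E3 and 102 to 125 CPM in WT cells. Replicate 3 of E3 lay close to E5 for this gene, and the log2 fold change was between -1.67 and -1.09 over the alternatives. Fibronectin (Fn1) did not pass the test, with 915, 1167 and 1578 CPM in E5 and 1481, 1254 and 556 CPM in E3.

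Proteases that cut the matrix, with their inhibitors, gave 11 lower DEGs of 25 tested, none higher, and a median of -0.78. Mmp3, or stromelysin-1, was 6.55, 7.35 and 6.42 CPM in E5, 102, 108 and 132 CPM in E3 and 39.4 to 44.4 CPM in WT cells. Here too WT lay between the clones (log2 fold change -4.07, SE 0.13, adjusted p = 1.19e-08). Adamts4, an aggrecanase gene, was lower in E5 by a log2 fold change of -2.15, and Reck, an inhibitor of matrix metalloproteases, had 1 count in each E5 library and 2.26 to 3.6 CPM in E3. Both enzymes and inhibitors were therefore among the lower DEGs. Of 24 enzymes that modify collagen, 3 were lower and 1 higher, or 12.5% and 4.17% beside 7.52% and 3.49% of all genes. The higher one was the lysyl oxidase gene Loxl2, at 10.1, 11.2 and 8.84 CPM in E5, 0.160, 0.127 and 0.0880 CPM in E3 and 3.58 to 3.89 CPM in WT cells, with a log2 fold change of 6.29 (SE 0.21). The libraries of the 3 lines did not overlap for Loxl2.

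Fibroblast markers were lower in E5 as well, with 7 lower DEGs among 8 tested and a median of -2.73, and 4 of the 7 (Col1a1, Col1a2, Dcn and Lum) also belong to the matrix lists. Pdgfra, a receptor for platelet-derived growth factor, was 17.4, 16.3 and 19.4 CPM in E5, 66.7, 49.1 and 36.4 CPM in E3 and 23.5 to 30.3 CPM in WT cells. Pdgfrb, the related receptor, was 0.239 to 0.351 CPM in E5, 4.20 to 6.36 CPM in E3 and 1.20 to 1.45 CPM in WT cells. E3 was above WT and E5 below WT for both receptors. The summed level of the 10 markers was 3080 to 3415 CPM in E5, 3552 to 4541 CPM in E3 and 2718 to 3040 CPM in WT cells, most of it Col3a1, and Thy1 and Rgs5 were at 0 in every library. The 14 leukocyte markers summed to 2.92 to 3.70 CPM over all libraries, the 8 endothelial markers to 0.259 to 0.740 CPM, and 6 of 9 lung epithelial markers, Sftpc and Nkx2-1 among them, had no count in any library. The 12 muscle, fat and nerve markers summed to 11.3 to 14.7 CPM in E5, 12.9 to 17.4 CPM in E3 and 4.73 to 6.18 CPM in WT cells, with Tubb3 the highest and Myod1, Myog and Sox10 at 0 in every library, and their part in the results was not tested.

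Epithelial genes did not move as one group. Of 18 keratin and junction genes tested, 4 were DEGs higher in E5 and 3 lower. Krt8 and Krt18 encode the paired keratins of simple epithelia. Krt8 was 379, 383 and 350 CPM in E5, 36.8, 32.3 and 45.3 CPM in E3 and 183 to 200 CPM in WT cells. Krt18 was 517, 574 and 583 CPM in E5, 127, 95 and 153 CPM in E3 and 259 to 275 CPM in WT cells. Both keratins were above WT in E5 and below WT in E3, with log2 fold changes of 3.28 (SE 0.13, adjusted p = 7.24e-08) and 2.16 (SE 0.16, adjusted p = 4.75e-06). Junction plakoglobin (Jup) went the other way, at 1.31, 1.63 and 2.00 CPM in E5, 9.06, 4.61 and 7.61 CPM in E3 and 6.90 to 7.85 CPM in WT cells. The mesenchymal genes Vim and Cdh2 did not pass the test, at log2 fold changes of 0.26 (adjusted p = 0.122) and 0.28 (adjusted p = 0.196). A list of 22 tested genes linked to epithelial-to-mesenchymal transition held transcription factors and also the actin gene Acta2. In it 1 (4.55%) was a DEG higher in E5 and 3 (13.6%), Acta2 among them, were lower, beside 3.49% and 7.52% of all genes. Snai1, which represses E-cadherin, was 6.64, 6.85 and 6.27 CPM in E5 and 16.8, 14.9 and 17.1 CPM in E3, with WT near E5 at 7.47 to 8.63 CPM. Klf8, an X-linked factor, was at 0 in E5 and 3.32 to 6.55 CPM in E3. Foxf2 was higher in E5 by 1.17 (SE 0.09).

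**Figure D5:**
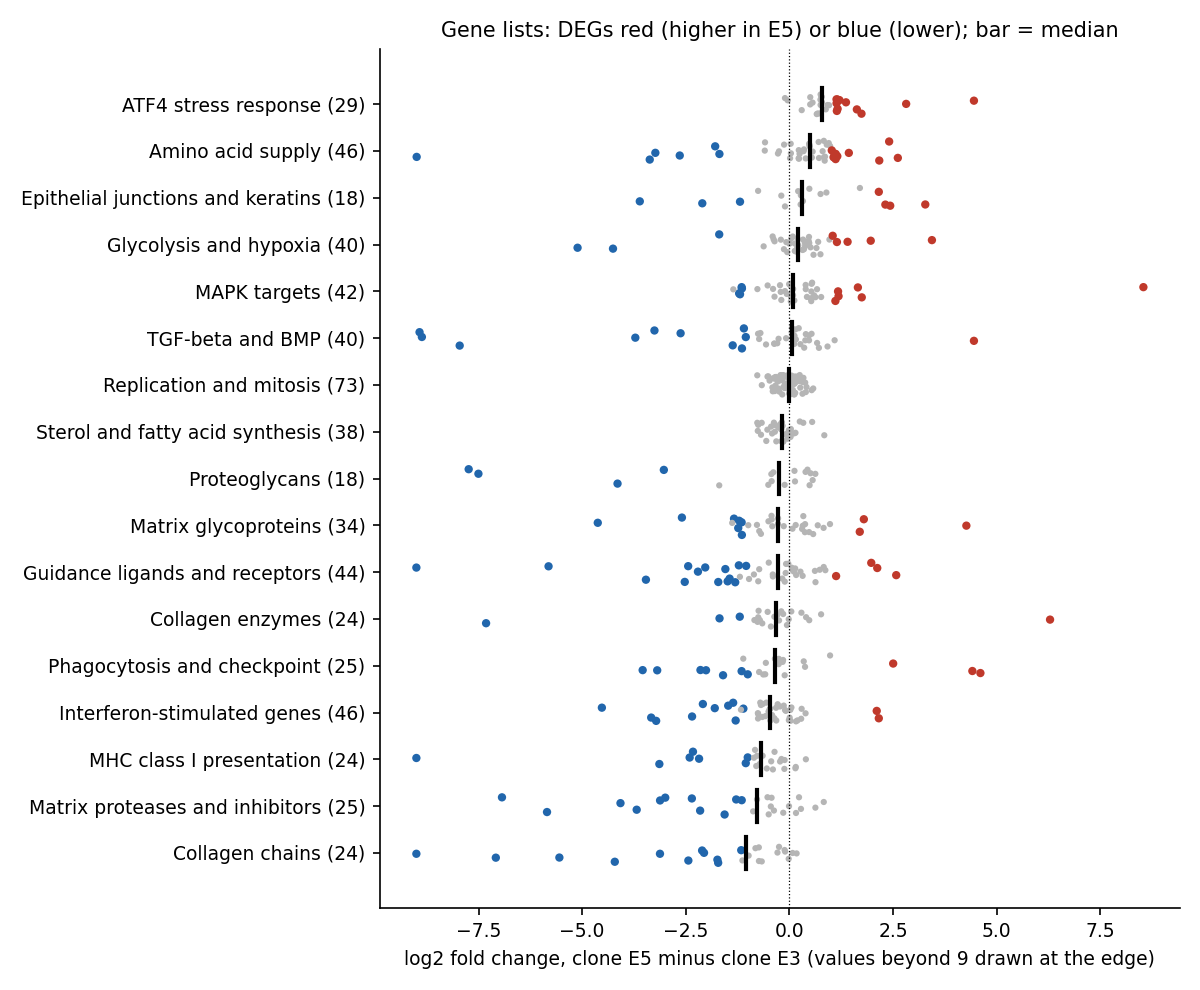
Log2 fold change of clone E5 minus clone E3 (x axis) for the tested genes of 17 lists (y axis, number tested in parentheses), with DEGs higher in E5 in red, DEGs lower in E5 in blue, other genes in grey and a black bar at the list median. Fitted values are drawn, those beyond 9 at the edge, and for genes at the detection limit in a clone they depend on the fit. The stress response of ATF4 has the highest median, 0.79, and collagen chains the lowest, -1.06.

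Genes of the integrated stress response, which the transcription factor ATF4 drives when amino acids run short or proteins misfold, were higher in E5. Of 29 tested, 11 were DEGs higher in E5 and none was lower, and the median was 0.79. At the FDR threshold alone 26 were higher in E5, beside 14.7% of all genes. Against WT the list median was -0.98 in E3 and -0.20 in E5. Trib3, which encodes a pseudokinase, was 129, 180 and 202 CPM in E5, 62.2, 26.8 and 63.9 CPM in E3 and 304 to 330 CPM in WT cells. Ddit3, encoding the stress factor CHOP, was 26.7, 44.1 and 57.2 CPM in E5, 20.2, 8.20 and 21.3 CPM in E3 and 87.5 to 99.7 CPM in WT cells. Both clones were below WT for these genes and E3 was the lower. Atf4 itself was 624, 670 and 657 CPM in E5 and 416, 310 and 488 CPM in E3, a difference of 0.69 (SE 0.15, adjusted p = 0.00534) that did not reach the fold threshold. Stc2, a secreted glycoprotein hormone gene, was 11, 10.6 and 11.6 CPM in E5 and 1.19 to 2.02 CPM in E3 and WT cells, so that for this member E5 was the one that departed. Ddit3 lost its call without E5 replicate 3 (log2 fold change 1.10, adjusted p = 0.0524). Ddit3 and Atf4 were chosen after their values were seen.

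Genes of amino acid supply were more often higher than lower in E5, with a median of 0.49 over 46 tested. DEGs were 10 higher (21.7%) and 6 lower (13.0%), beside 3.49% and 7.52% of all genes. At the FDR threshold alone, 25 of the 46 were higher and 7 lower, beside 14.7% and 17.2% of all genes. Over the alternatives the higher DEGs were 7 to 12 and the lower ones 2 to 6. Slc7a11, the cystine/glutamate exchanger, was 86.1, 96.5 and 103 CPM in E5, 29.6, 20.4 and 13.3 CPM in E3 and 85.3 to 93.9 CPM in WT cells. Cth, the cystathionine gamma-lyase that makes cysteine, was 53.2, 98.4 and 124 CPM in E5 and 18.5, 15.9 and 17.5 CPM in E3. Slc6a15, a transporter of neutral amino acids, was 37.4, 45.3 and 55.5 CPM in E5 and 8.76, 8.58 and 5.15 CPM in E3. E3 was the clone below WT for these 3 genes, with log2 fold changes between clones of 2.17 (SE 0.23), 2.41 (SE 0.25) and 2.62. The glutamate transporter gene Slc1a3 was the other way round, at 8.48, 10.6 and 5.76 CPM in E3, 3.11 to 3.59 CPM in WT cells and 2 counts over the E5 libraries. Cbs, which acts just before Cth in cysteine synthesis, was lower in E5, at -3.37, and reached 2.55 CPM at most. Glycolysis and hypoxia genes gave 5 higher and 3 lower DEGs of 40, or 12.5% and 7.5% beside 3.49% and 7.52% of all genes, so the lower share was that of all genes. The glucose transporter gene Slc2a3 was 25.7, 29.2 and 26.8 CPM in E5, 7.40, 7.08 and 6.46 CPM in E3 and 16.3 to 20.3 CPM in WT cells, and Ldhb, a lactate dehydrogenase subunit, was 0.366, 0.542 and 0.629 CPM in E5 and 9.28, 7.31 and 13.1 CPM in E3. Of 38 sterol and fatty acid synthesis genes and 73 genes of DNA replication and mitosis, none was a DEG by edgeR's quasi-likelihood test. At the FDR threshold alone, 8 of the former and 12 of the latter passed, beside 31.9% of all genes. Mki67, the proliferation marker, was 477, 415 and 444 CPM in E5 and 468, 540 and 203 CPM in E3 (adjusted p = 0.733).

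Among signaling genes, the transcription factor gene Myc was higher in E5. It was 658, 721 and 671 CPM in E5, 230, 182 and 239 CPM in E3 and 540 to 646 CPM in WT cells. E5 overlapped with no E3 library, and the log2 fold change was 1.65 (SE 0.13, adjusted p = 7.07e-06). MAPK target genes, which rise when ERK is active, split into 6 higher and 4 lower DEGs of 42. These were 14.3% and 9.52% of the list, beside 3.49% and 7.52% of all genes. Etv5, a factor induced by ERK, was 194, 236 and 233 CPM in E5 and 112, 116 and 79.3 CPM in E3. Hbegf, an EGF receptor ligand, was 16.5, 15.1 and 14.9 CPM in E5, 5.68, 7.40 and 7.32 CPM in E3 and 16 to 20.7 CPM in WT cells. Spry2, a feedback inhibitor of the pathway, was 33.6, 32.9 and 33.8 CPM in E5, 90.7, 56.4 and 81.8 CPM in E3 and 86.4 to 98.1 CPM in WT cells. Without E3 replicate 3 the higher DEGs of the list were 4, and Etv5, chosen after its values were seen, was at 0.97. Nras, which encodes a small GTPase upstream of the pathway, did not pass the test (0.25, adjusted p = 0.0583).

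Growth factors gave 6 higher and 7 lower DEGs of 36 tested, and the TGF-beta and BMP list 1 higher and 10 lower of 40. Bmp4 and Bmp2, ligands that pattern many tissues, were 3.25 to 5.22 and 5.83 to 8.82 CPM in E3, 0.295 to 0.561 and 2.20 to 2.94 CPM in WT cells, and had 1 and 2 counts over the E5 libraries. The BMP target genes Id2 and Id3 were lower in E5 too, at -1.10 and -1.05. The higher gene of this list was Gdf15, at 1.14, 2.54 and 2.44 CPM in E5 and 0.0423 to 0.160 CPM in E3, with WT at 2.22 to 2.58 CPM. Gdf15 also belongs to the ATF4 stress response list and is counted in both. Ligands and receptors of axon guidance gave 14 lower and 4 higher DEGs of 44. Beside Sema3f, Sema3d was 7.88, 4.35 and 2.97 CPM in E3 and at most 1 count in any E5 library, and WT was as low as E5, at 0 to 0.0633 CPM. Slit3, a ligand of Robo receptors, was 13.3, 13.7 and 14.1 CPM in E5, 3.96, 3.63 and 2.84 CPM in E3 and 0.821 to 1.12 CPM in WT cells, above WT in both clones. Nefl, the light neurofilament, and Pcsk6, a proprotein convertase that activates TGF-beta family precursors, were among the largest higher DEGs. Nefl was 129, 144 and 137 CPM in E5, 4.18, 3.49 and 4.18 CPM in E3 and 43.4 to 49.5 CPM in WT cells. Pcsk6 was 28.7, 34.3 and 32 CPM in E5, 0.460, 0.380 and 0.154 CPM in E3 and 5.95 to 6.42 CPM in WT cells.

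Of 24 genes of MHC class I presentation, 7 were lower DEGs and none was higher, and the median was -0.68 (-0.45 without E3 replicate 3). Mr1, which presents vitamin metabolites to T cells, was 3.15, 3.54 and 4.57 CPM in E5, 25.1, 16.8 and 17.9 CPM in E3 and 11.4 to 12.6 CPM in WT cells. Other members were closer. B2m, the shared light chain, was 137, 138 and 133 CPM in E5, 212, 176 and 285 CPM in E3 and 167 to 170 CPM in WT cells, a difference of -0.72 (SE 0.15, adjusted p = 0.00479), and the peptide transporter gene Tap1 did not pass (-0.40, adjusted p = 0.0571). Of 46 interferon-stimulated genes, 10 were lower and 2 higher, with a median of -0.47. Parp12, an antiviral member, was 9.01, 9.24 and 9.30 CPM in E5, 24.9, 22.4 and 23.2 CPM in E3 and 12.8 to 14.1 CPM in WT cells, and Ifitm1 was higher in E5, at 19.8, 20.7 and 19.3 CPM against 4.32, 2.89 and 6.18 CPM. B2m and Tap1 were chosen after their values were seen.

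Among 25 genes of phagocytosis and immune checkpoints other than Cd47, 7 were lower and 3 higher in E5. Ulbp1 and Raet1d, ligands of the NKG2D receptor of natural killer cells, were both lower. Ulbp1 was 2.03, 1.82 and 2.13 CPM in E5, 21.9, 19.7 and 12.9 CPM in E3 and 13.0 to 15.2 CPM in WT cells. Raet1d was 0.819, 0.586 and 0.518 CPM in E5, 7.36, 6.64 and 8.33 CPM in E3 and 3.63 to 3.85 CPM in WT cells. E5 was below both other lines for Ulbp1 and Raet1d, with log2 fold changes of -3.19 (SE 0.20, adjusted p = 1.42e-06) and -3.54 (SE 0.19, adjusted p = 4.52e-07). A further NKG2D ligand gene, Raet1e, chosen after its values were seen, did not pass the test at 10.3 to 11.2 CPM in E5 and 10.8 to 12.6 CPM in E3 (log2 fold change -0.11, adjusted p = 0.454). Nectin2, a ligand of DNAM-1 and TIGIT, was 2.69, 3.04 and 2.92 CPM in E5 and 12.0, 10.1 and 12.8 CPM in E3, with WT at 6.06 to 8.43 CPM. Of 22 chemokine and cytokine genes, 6 were lower DEGs and none was a higher one. At the FDR threshold alone 3 were higher, beside 14.7% of all genes. The 6 became 3 without replicate 1 of E3 and 3 with only the clone libraries. Those named here by rule were weakly expressed, with Il11 at 2.16 to 2.57 CPM and Il33 at 1.74 to 2.94 CPM in E3.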

How the data were processed

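Libraries were directional, polyA-selected and paired-end. Per the labels and methods, FastQC, Trimmomatic and STAR with the GRCm39 genome were used by the authors, who deposited unnormalized counts for each gene and library. The counter, strand setting and annotation release are not given in the sources used here, so overlapping, antisense and near-identical genes are uncertain. Groups and replicates came from the labels.

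The 9 libraries were fitted together with edgeR 4.0.16 (quasi-likelihood test, TMM scaling, Benjamini-Hochberg adjustment) in R 4.3.3, after filterByExpr (minimum count 10, total 15) left 14593 of 50813 genes. The thresholds follow the study's methods. SE is the log2 fold change divided by the root of its F statistic. With 44257404 to 55095219 counts per library, a floor of 3 counts was 0.0555 to 0.0660 CPM and covers counting error only. On simulated counts for E5 against E3 with 14593 genes, 200 of them changed, 147 were recovered as DEGs with 3 false calls.

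Members and lists were chosen with earlier results of these data known. Genes named were Cd47, Thbs1, Vim, Cdh1, Cdh2, Fn1, Nras, Myc and Mki67; the 10 largest DEGs each way with an average log2 CPM above 3, no overlap between clones and an assigned symbol; up to 3 each way per list with an average log2 CPM above 0; and the 6 most abundant genes with an assigned symbol expressed in 1 clone only, each way. Not every gene under this rule is reported here. Named outside this rule, with values known, were those so marked and Id2, Id3, Dcn, Lum, Col1a2, Col4a1, Col4a2 and Rbms3. Alternatives were DESeq2 1.42.0, other scalings, filters and thresholds, the clone libraries alone, a replicate block and leaving out each library.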

Additional observations from a re-analysis of the deposited data

Results flagged for a closer look

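For 14 of 36 named genes, the clones differed from WT in opposite directions, each with an FDR under 0.05 and a log2 fold change above 1 or below -1. The 36 were single genes such as Cd47 and Myc, the largest DEGs, and the most abundant genes expressed in 1 clone only. Most were thus picked for their difference between the clones, so passing the direct test of E5 against E3 adds no support. The share of all genes that meet the same rule was not counted, so 14 of 36 has no background here. Higher in E5 and lower in E3 than in WT were Pcsk6 (log2 fold change E5 minus E3 of 6.55), Nefl (5.12), Anpep, an aminopeptidase (3.71), and Ano1, a calcium-activated chloride channel (2.82). So were 5 genes expressed in E5 only, whose ratios of E5 over E3 rest on 1 to 6 counts in E3: Krt13 (330), Slc2a10 (87.0), Chmp4c (83.8), Phactr2 (72.7) and Ripor3 (45.2). Lower in E5 and higher in E3 were 5 genes expressed in E3 only. Armcx2 was at least 1206-fold, Tmem47 at least 816-fold and Lrch2 at least 340-fold lower in E5, and the ratios of E3 over E5 were 4037 for Col4a5 and 1487 for Cd34, on 2 and 3 counts in E5. Both comparisons with WT use the same WT libraries. None of these genes lost its call without replicate 3 of E3.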

How the results depend on the processing

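The 1606 DEGs became 836 with a minimum of 10 counts in each library, a filter that removes genes silent in a clone by construction, and 776 with glmTreat against a log2 fold change of 1. Leaving out 1 library at a time gave 1488 to 1866 DEGs and 3235 to 6555 genes at an FDR under 0.05 alone, in place of 4661. The replicate block gave 1563 DEGs, 1532 of them shared, and 3887 genes at the FDR alone. Same-numbered libraries of the clones had deviations that correlated at -0.37, -0.14 and -0.17, so none correlated positively. With 3 replicates per clone, these values cannot show whether same-numbered libraries shared a batch. DESeq2 gave 1618 DEGs and the clone libraries alone 1422. Upper-quartile scaling moved the median of all genes to -0.10 and gave 1219 lower and 435 higher DEGs. Genes expressed in 1 clone only were 66 with 0 counts in the silent clone, 32 with at least 5 CPM in the other and 114 to 125 without 1 library. Lower DEGs on the X chromosome, an alternative chosen after seeing the data, ranged from 13, with at least 10 counts in every library, to 81. Of 170 genes followed, 155 lost no call in any alternative run. No gene that was a DEG in the main run reversed direction, and reversals of other genes were not counted. At least 3 counts per library are needed before a gene can be told from 0.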

Other observations

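The clones also differed in genes that record tissue position and lineage. Of 27 Hox genes tested, 2 were DEGs higher in E5 and 5 lower. Hoxa10 was 12.8, 13.0 and 13.4 CPM in E5, 3.16, 2.77 and 4.07 CPM in E3 and 6.73 to 7.11 CPM in WT cells (log2 fold change 1.97, adjusted p = 4.86e-06 by edgeR's quasi-likelihood test). Hoxb9 went the other way, at 0.582, 0.911 and 0.999 CPM in E5 and 5.08, 2.83 and 3.83 CPM in E3. The A and B cluster members named here thus differed in opposite directions. Of 25 clustered and other protocadherins, 3 were higher and 6 lower (2 and 7 without E3 replicate 3), and Pcdh7 was 0.0370 to 0.130 CPM in E5, 14.0 to 30.2 CPM in E3 and 19.2 to 24.5 CPM in WT cells. Of 13 germline and imprinted genes, 3 were higher and 3 lower. Dazl, a germ cell RNA-binding protein gene, was 3.32 to 3.78 CPM in E3 and had no count in any E5 or WT library, and the imprinted Peg10 was 61.3, 56.6 and 51.0 CPM in E5 and 181, 165 and 93.9 CPM in E3.

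Notch ligands were higher in E5: Jag1 was 3.94, 3.6 and 4.51 CPM in E5 and 1.19 to 1.58 CPM in E3, Jag2 3.74 to 4.22 and 1.25 to 1.63 CPM, and Dll1 4.85 to 5.62 and 2.09 to 2.56 CPM, among 3 higher and 2 lower DEGs of 20. The WNT list gave 3 higher and 5 lower of 27. Notum, an extracellular WNT deacylase, was 14.9, 13.7 and 9.82 CPM in E5 and 2.56 to 4.11 CPM in E3 and WT cells, while the receptor gene Fzd6 was 9.24, 7.85 and 8.36 CPM in E5 and 25.6, 22.3 and 17.9 CPM in E3. Detoxification genes gave 3 higher and 6 lower of 40, or 7.5% and 15% beside 3.49% and 7.52% of all genes. The efflux pump gene Abcc3 was 5.58, 5.40 and 6.6 CPM in E5, 0.176 to 0.211 CPM in E3 and 7.47 to 7.80 CPM in WT cells. The glutathione transferase gene Mgst1 was 3.36 to 5.58 CPM in E3 and 0.401 to 0.694 CPM in E5 and WT cells. Among 30 integrin and adhesion genes, 2 were higher and 3 lower, or 6.67% and 10% beside 3.49% and 7.52% of all genes, and Itgb7 was 460, 471 and 440 CPM in E5, 171, 207 and 211 CPM in E3 and 322 to 368 CPM in WT cells. The other higher one, Itga6, lost its call without E3 replicate 3 (0.87).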
